A study of Mus musculus with 20 samples.

Results

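The 6 genes described here are Mdm2 and 5 protein-coding genes that lie around it on mouse chromosome 10, namely Slc35e3, Cpsf6, Cct2, Frs2 and Cpm. They are 6 of the 33581 genes in each deposited table and were found by symbol in all 5 day tables and all 20 libraries, and all 6 passed the filter on low counts. The set was chosen by position around Mdm2 and by level, and the rule also names the change by day in these same libraries, so levels and changes over time are given as a description with no test. The difference between the hairpins was no part of the rule, but it was known when the set was drawn up, and counts among the 6 genes support nothing beyond themselves. The label of the set called these genes highly expressed, which describes Mdm2, Slc35e3 and Cct2, only in part Frs2 and Cpsf6, and not Cpm. Since level was part of the choice, the high levels are no check of that label.

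The libraries are RNA-seq of 3T3-L1, a mouse embryonic fibroblast line that turns into fat cells when treated with a hormone mixture. A lentiviral SMARTvector hairpin (short hairpin RNA) against Tcf7l2, a transcription factor of the Wnt pathway (shTcf7l2, here "knockdown"), or a scrambled hairpin (shScr, here "scrambled") had been introduced at passage 2. Each arm was a mixed population selected with puromycin, not a clone. RNA was taken on days 0, 2, 4, 6 and 8 of the course, in duplicate, which gave 2 libraries for every arm and day, or 10 groups. A thiazolidinedione was not routinely part of the medium, and a single hairpin stands for the knockdown. Nothing in the labels ties the duplicates to separate cultures, so the p-values speak of the spread between these libraries, which may be technical.

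Mdm2 is the ubiquitin ligase that marks the tumour suppressor p53 for destruction, and it is itself a p53 target, so the pair forms a negative feedback loop. The gene was first found on the double minute chromosomes of a transformed 3T3 derivative. Its neighbours work elsewhere in the cell: Cct2 encodes the beta subunit of the CCT chaperonin that folds actin and tubulin, Frs2 the adaptor that links fibroblast growth factor (FGF) receptors to Ras signalling, Cpsf6 a subunit of cleavage factor I that steers the choice of polyadenylation site, Cpm a membrane-bound carboxypeptidase that trims basic residues from peptides, and Slc35e3 a member of a family of sugar-nucleotide transporters whose substrate is not settled.

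The promoters of Mdm2, the most abundant of the 6, and of Cct2, Frs2 and Cpsf6, which were higher in knockdown cells late in the time course, are shown to place these genes in sequence. Each is the RefSeq window from 250 bases before to 50 bases after the annotated start in GRCm38.p6, read along the gene (minus strand); capitals in the Mdm2 promoter mark the single match to the p53 half-site, which began 186 bases before the start.
Mdm2, chr10:117710709-117711008: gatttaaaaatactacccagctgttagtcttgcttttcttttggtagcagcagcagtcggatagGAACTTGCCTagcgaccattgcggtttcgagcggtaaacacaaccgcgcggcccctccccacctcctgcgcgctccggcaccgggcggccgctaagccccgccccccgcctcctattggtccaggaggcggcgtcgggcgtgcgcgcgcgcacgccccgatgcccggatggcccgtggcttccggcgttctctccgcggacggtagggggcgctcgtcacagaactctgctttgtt
Cct2 (the more upstream of its 2 windows), chr10:117063803-117064102: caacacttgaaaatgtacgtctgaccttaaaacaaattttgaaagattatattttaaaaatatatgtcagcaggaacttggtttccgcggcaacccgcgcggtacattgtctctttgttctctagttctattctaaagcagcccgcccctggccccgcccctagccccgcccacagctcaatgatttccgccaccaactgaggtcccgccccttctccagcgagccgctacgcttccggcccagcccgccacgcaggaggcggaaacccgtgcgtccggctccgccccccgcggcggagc
Frs2, chr10:117148425-117148724: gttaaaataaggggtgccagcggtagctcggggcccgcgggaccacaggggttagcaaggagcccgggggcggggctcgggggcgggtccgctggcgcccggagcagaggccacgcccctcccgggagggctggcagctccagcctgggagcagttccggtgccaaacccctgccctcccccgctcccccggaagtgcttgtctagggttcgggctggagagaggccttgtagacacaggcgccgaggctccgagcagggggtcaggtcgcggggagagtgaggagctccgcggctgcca
Cpsf6, chr10:117376924-117377223: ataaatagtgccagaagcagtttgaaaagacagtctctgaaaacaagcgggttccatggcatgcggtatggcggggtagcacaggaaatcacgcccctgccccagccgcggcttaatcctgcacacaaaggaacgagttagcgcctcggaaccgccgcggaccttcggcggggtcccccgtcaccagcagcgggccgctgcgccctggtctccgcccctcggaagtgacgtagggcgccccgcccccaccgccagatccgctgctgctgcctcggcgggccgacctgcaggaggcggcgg
All 6 genes matched the RefSeq table, with 7 windows in all. Every window was rich in G and C, from 57.3% in the Cct2 window above to 73.7% in Cpm, against a median of 52.7% over 32851 mouse promoter windows. They held 24 to 37 CpG dinucleotides against a median of 7. The p53 half-site was searched on both strands and occurred in 8.36% of all windows; among these 7 it occurred in Mdm2 only. The core letters bound by Tcf/Lef factors, CTTTGAA or CTTTGAT on either strand, were in 8.65% of all windows and in none of the 7. A match of letters is a description of the sequence, and its absence from these 300 bases says nothing about the rest of the locus.

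Whole reads were recovered from the deposited values, with 20153360 to 33973608 reads per library, and levels are in RPM, the reads of a gene scaled to the total of its library, or, between genes, in RPM per kilobase of exon (RPKM). Tcf7l2, the target of the hairpin, did not overlap between the arms on any of the 5 days, at 12.2 to 23.4 RPM in knockdown against 38.5 to 59.0 RPM in scrambled cells (average difference -1.36 on the log2 scale, SE 0.0866, limma adjusted p = 2.61e-08). The 5 fibroblast markers (Col1a1, Col1a2, Pdgfra, Thy1 and Dlk1) and the 5 adipocyte markers (Adipoq, Fabp4, Plin1, Cidec and Lipe) were all detected. Macrophage markers summed to at most 1.94 RPM, with Emr1 at 0 reads, and endothelial markers to at most 1.12 RPM. At days 4, 6 and 8 the libraries numbered 2 held more adipocyte marker RNA than those numbered 1, most of all in scrambled cells. In scrambled cells these markers summed to 5945 RPM, 11540 RPM and 12857 RPM in library 2, against 1420 RPM, 5111 RPM and 2238 RPM in library 1. In knockdown cells they summed to 1254, 2390 and 1507 RPM in library 2, against 612, 1325 and 797 RPM in library 1. Many differences between the hairpins and counts over gene lists are therefore also given without the 3 scrambled libraries numbered 2 of these days. Values with no such second figure are not thereby shown to be unchanged. At these days that fit sets scrambled library 1 against both knockdown libraries, so hairpin and library number are partly mixed in it. A call lost there cannot be assigned to either. Levels and ratios are given for each library. In bulk RNA, fewer cells of a type and less RNA per cell cannot be told apart.

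Mdm2 was among the most abundant messages of these cells. It averaged 634 RPKM over the 20 libraries (range 531 to 999), the 69th highest of the 15517 tested genes with an exon length, above 99.6% of them. Slc35e3 averaged 444 RPKM (367 to 521), above 99.1% of genes, and Cct2 averaged 239 RPKM (123 to 421), above 97.9%. Frs2 stood at 16.1 RPKM (10.0 to 20.4) and Cpsf6 at 11.3 RPKM (7.48 to 17.0), above 75.9% and 67.9% of genes. Cpm, at 1.20 RPKM (0.207 to 7.32), lay below the median of all ranked genes, 5.50 RPKM. In this order the ranges of Slc35e3 and Cct2 overlapped, as did those of Frs2 and Cpsf6, while Mdm2 lay above Slc35e3, Cct2 above Frs2, and Cpsf6 above Cpm in every library. Together Mdm2 and Slc35e3 took 0.409 to 0.692% of the reads of a library.

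The high level followed gene order only in patches. Mdm2 and Slc35e3 are adjacent and read from the same strand, and Cct2 lies farther off with Frs2 as its neighbour. Between Cct2 and Mdm2 lie Yeats4, a reader of acetylated histones, at 59.2 RPKM, the lysozymes Lyz2 at 3.21 RPKM and Lyz1 at 0.954 RPKM, then Cpsf6 and Cpm. On the other side Nup107, a scaffold nucleoporin, stood at 33.2 RPKM and the small GTPase gene Rap1b at 88.8 RPKM, and Cand1, an exchange factor of cullin ligases, at 18.1 RPKM, so that these neighbours outside the set (Yeats4, Nup107, Rap1b and Cand1) were above Frs2, Cpsf6 and Cpm. Mdm1, a microtubule-binding protein gene next to Rap1b, was at 4.13 RPKM. The exons of the 6 genes overlapped those of no other annotated gene, which matters because the library kit does not mark strand.

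**Figure D1:**
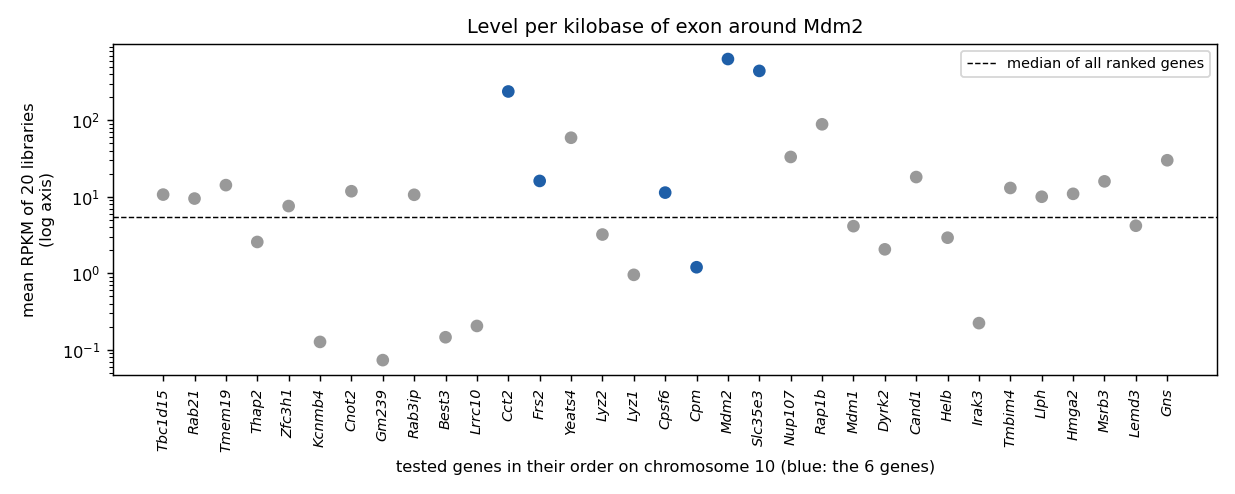
Mean level per kilobase of exon over the 20 libraries (RPKM, log axis) of tested genes in their order along chromosome 10, with the 6 genes in blue and a dashed line at the median of all ranked genes. Mdm2 at 634 RPKM and Slc35e3 at 444 RPKM sit side by side, Cct2 at 239 RPKM stands apart from them, and Cpm at 1.20 RPKM lies below the dashed line between Cpsf6 and Mdm2.

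Against relatives of the same family, Mdm2, Slc35e3 and Cct2 each had the highest level. Mdm4, the partner of Mdm2 that lacks strong ligase activity of its own, averaged 3.37 RPKM, and Trp53, which encodes p53, averaged 20.4 RPKM. The ratio of Mdm2 to Mdm4 reads ranged from 47.4 to 129.9 across libraries. The other members of the Slc35e family, Slc35e1, Slc35e2 and Slc35e4, averaged 23.8, 3.64 and 9.71 RPKM. The 7 other CCT subunits, which assemble with Cct2 in equal numbers, averaged 24.0 RPKM (Cct3) to 85.5 RPKM (Cct5).

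**Figure D2:**
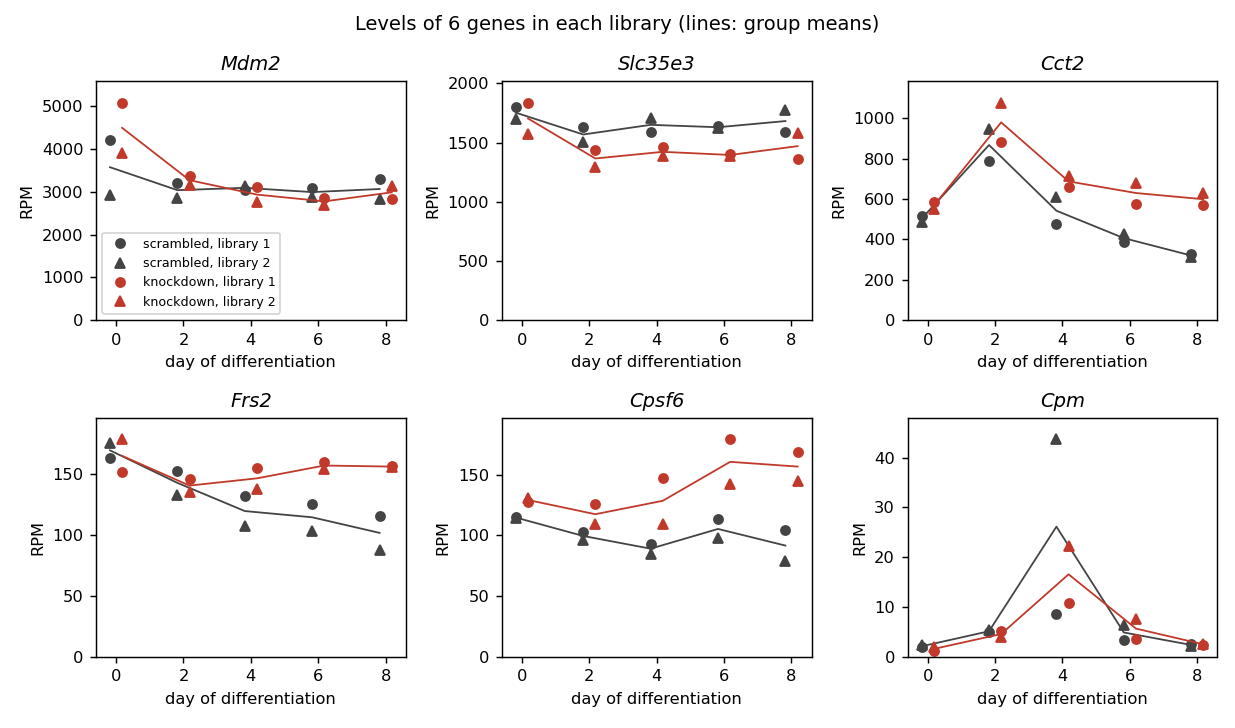
Level (RPM) of each of the 6 genes in each of the 20 libraries by day of differentiation, with scrambled libraries in dark grey, knockdown libraries in red, circles for library 1, triangles for library 2 and lines through the means of the 2 libraries. Cct2 peaks at day 2 in both arms, the red points of Cpsf6 lie above the grey on every day, those of Cct2 lie above at days 0, 4, 6 and 8 and those of Frs2 at days 4, 6 and 8, and Cpm has its highest points at day 4.

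The comparison of knockdown with scrambled cells asks which genes depend on Tcf7l2 as preadipocytes differentiate. Averaged over the 5 days, Cpsf6 and Cct2 were 34.5% and 34.1% higher in knockdown cells, Frs2 was higher by less, Slc35e3 was lower, and neither Mdm2 nor Cpm was called. In limma on the deposited log2 values, with Benjamini-Hochberg adjustment over 16497 genes and a call at an adjusted p under 0.05, 4 of the 6 were called, 3 higher and 1 lower, with a median difference of 0.13. Over all genes tested, 25.4% were called (12.3% higher and 13.2% lower) and the median difference was -0.0028.

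Mdm2 itself moved little with the hairpin. In scrambled cells it stood at 4213 and 2936 RPM at day 0, 3216 and 2859 at day 2, 3039.5 and 3145 at day 4, 3095 and 2889 at day 6 and 3296 and 2833 at day 8. In knockdown cells it stood at 5080.4 and 3908 RPM at day 0, 3374 and 3167 at day 2, 3109 and 2758 at day 4, 2851 and 2699 at day 6 and 2840.0 and 3132 at day 8. The highest libraries of each arm were those numbered 1 at day 0, and the arms overlapped on 4 of 5 days, with both knockdown libraries lower at day 6 only, as for 25.2% of all genes tested. The difference averaged 0.03 (SE 0.0816, limma adjusted p = 0.841); by day it was 0.32, 0.12, -0.08, -0.15 and -0.09, with none called.

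Slc35e3 was lower in knockdown cells. In scrambled cells it stood at 1805 and 1701 RPM at day 0, 1636 and 1501 at day 2, 1589 and 1710.4 at day 4, 1639 and 1620.1 at day 6 and 1592 and 1772 at day 8. In knockdown cells it stood at 1836 and 1571 RPM at day 0, 1437 and 1294 at day 2, 1460.0 and 1383 at day 4, 1401 and 1390.2 at day 6 and 1359 and 1580.3 at day 8. The arms overlapped at day 0, and both knockdown libraries were below both scrambled ones at days 2, 4, 6 and 8, as for 6.58% of all genes tested. The average difference was -0.20 (SE 0.0603, limma adjusted p = 0.0260), a fall of 12.7%, and no single day was called. The call ended without scrambled library 2 of day 8 (adjusted p = 0.0504), knockdown library 1 of day 6 (0.0515) or knockdown library 1 of day 8 (0.0571), and without the 3 late scrambled libraries numbered 2 together (-0.14, adjusted p = 0.100) or after quantile normalization (-0.16, adjusted p = 0.0896). Its 3 relatives, Slc35e1, Slc35e2 and Slc35e4, were not called, at -0.01, -0.01 and 0.09.

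Cct2 was higher in knockdown cells, most at day 8. Scrambled cells had 517 and 488 RPM at day 0, 789 and 946 at day 2, 476 and 608 at day 4, 387 and 425 at day 6 and 325 and 314 at day 8. Knockdown cells had 584 and 549 RPM at day 0, 883 and 1077 at day 2, 660.0 and 715 at day 4, 578 and 682 at day 6 and 568 and 630.0 at day 8. Both knockdown libraries were above both scrambled ones at days 0, 4, 6 and 8, as for 4.95% of all genes tested, and the arms overlapped at day 2, when both were at their highest. The average difference was 0.42 (SE 0.0921, limma adjusted p = 0.00368), a fold of 1.34, and the call held in each of 29 alternative fits (highest adjusted p 0.00946). Without the 3 late scrambled libraries numbered 2 the difference was 0.44 (adjusted p = 0.00482).

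Cpsf6 had no overlap between the arms on any of the 5 days, with knockdown cells always above, as did 3.85% of all genes tested. In scrambled cells it stood at 115 and 115 RPM at day 0, 103 and 96.1 at day 2, 93.0 and 85.1 at day 4, 113 and 97.5 at day 6 and 105 and 78.6 at day 8. In knockdown cells it stood at 127 and 131 RPM at day 0, 126 and 109 at day 2, 147 and 109.7 at day 4, 179 and 142 at day 6 and 169 and 145 at day 8. From day 4 on, the knockdown libraries numbered 1 were above those numbered 2. The average difference was 0.43 (SE 0.0776, limma adjusted p = 0.000936), a fold of 1.35, and the call held in each of 29 alternative fits (highest adjusted p 0.00423, at 0.35, without the 3 late scrambled libraries numbered 2).

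Frs2 was higher in knockdown cells, with the gap in the second part of the course. Levels in scrambled cells were 163 and 176 RPM at day 0, 152 and 133 at day 2, 132 and 107 at day 4, 125 and 103 at day 6 and 115 and 87.7 at day 8. Levels in knockdown cells were 151 and 178 RPM at day 0, 145 and 135 at day 2, 155 and 137 at day 4, 159.8 and 154 at day 6 and 156 and 155 at day 8. The arms overlapped at days 0 and 2, and both knockdown libraries were above both scrambled ones at days 4, 6 and 8, as for 10.2% of genes. The average difference was 0.24 (SE 0.0776, limma adjusted p = 0.0326), a fold of 1.18. This call ended, with adjusted p between 0.0605 and 0.0689, without any one of 8 libraries: scrambled library 2 of day 4, 6 or 8, knockdown library 1 of day 4, or either knockdown library of day 6 or 8; without the 3 late scrambled libraries numbered 2 it was 0.14 (adjusted p = 0.170).

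Cpm, the least abundant, did not differ by hairpin in a way that passed the test. Scrambled cells had 1.94 and 2.27 RPM at day 0, 4.94 and 5.33 at day 2, 8.63 and 43.7 at day 4, 3.31 and 6.45 at day 6 and 2.59 and 2.17 at day 8. Knockdown cells had 1.24 and 1.92 RPM at day 0, 5.13 and 4.02 at day 2, 10.8 and 22.4 at day 4, 3.66 and 7.66 at day 6 and 2.35 and 2.66 at day 8. At day 4 library 2 was far above library 1 in each arm, and the arms overlapped on every day but day 0, when knockdown cells were below (14.6% of all genes tested). The average difference was -0.09 (SE 0.194, limma adjusted p = 0.754), and it turned to 0.12 without the 3 late scrambled libraries numbered 2 and to 0.07 without scrambled library 2 of day 4 alone.

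At single days, none of the 6 genes was called at days 0, 2, 4 or 6, where 0.224%, 0.267%, 1.61% and 4.12% of all genes tested were, and none was called there in limma on recovered reads. At an unadjusted p under 0.05, 0 of the 6 passed at days 0 and 2, 2 at day 4 (Cpsf6 and Frs2) and 3 at day 6 (Cct2, Cpsf6 and Frs2), against 6.41%, 5.02%, 10.2% and 24% of all genes. With the library number as a block, since same-numbered libraries deviated together, Cpsf6 was called at day 4 (0.50, adjusted p = 0.0381, with 3.1% of genes called), and Cct2 (0.59, adjusted p = 0.0101), Frs2 (0.41, adjusted p = 0.0234) and Cpsf6 (0.55, adjusted p = 0.0152) were called at day 6 (with 18% of genes called).

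At day 8, 3 of the 6 were called, all higher in knockdown cells, against 5.75% of all genes tested called and 3.39% called higher. Cct2 was higher by 0.85 (SE 0.172, limma adjusted p = 0.0138), a fold of 1.80. Cpsf6 was higher by 0.72 (SE 0.151, adjusted p = 0.0162) and Frs2 by 0.57 (SE 0.132, adjusted p = 0.0254). In the authors' deposited table, Cct2 at day 8 (log2 fold change 0.80, adjusted p = 0.0325) was the only one of the 6 genes under 0.05 on any day; Cpsf6 was at 0.68 (adjusted p = 0.160) and Frs2 at 0.54 (adjusted p = 0.336) there. The 3 calls held without scrambled library 1 of day 8 but not without any other library of that day. Cct2, Cpsf6 and Frs2 had adjusted p of 0.0853, 0.180 and 0.259 without scrambled library 2 of day 8, 0.0536, 0.116 and 0.110 without knockdown library 1, and 0.121, 0.0615 and 0.136 without knockdown library 2, with differences of 0.45 to 0.92. In a fit of the day 8 table alone the adjusted p values were 0.412 for Cct2, 0.453 for Cpsf6 and 0.485 for Frs2. That fit uses the spread of day 8 only, whereas the main fit shares 1 spread per gene over all days. The SD over genes of the difference between the 2 scrambled libraries was 0.199 at day 2 and 0.598 at day 8. Between the 2 knockdown libraries it was 0.189 and 0.263. The calls at day 8 thus rest in part on days with less spread. Without the 3 late scrambled libraries numbered 2, Cct2 was the only one of the 3 called, while Cpsf6 was at 0.59 (adjusted p = 0.115) and Frs2 at 0.45 (adjusted p = 0.120).

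**Figure D3:**
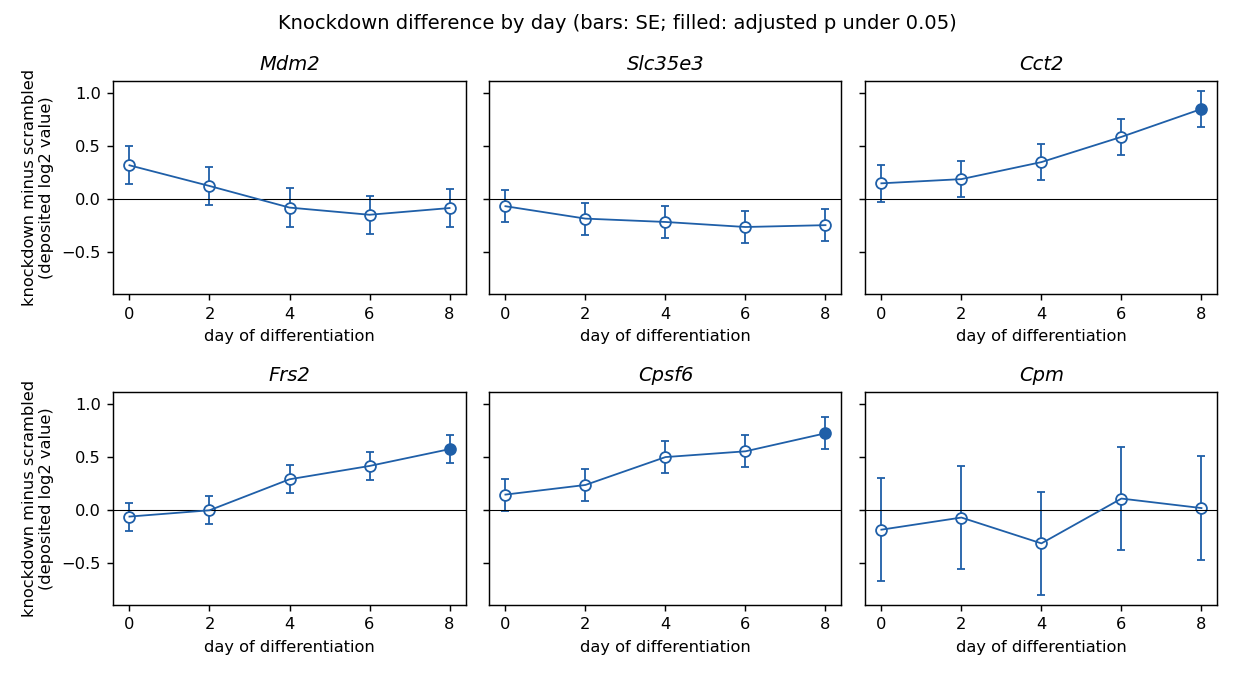
Difference between knockdown and scrambled libraries in the deposited log2 value at each day for each of the 6 genes, with bars for the SE and filled points where the limma adjusted p is under 0.05. Cct2, Cpsf6 and Frs2 are filled at day 8 only, at 0.85, 0.72 and 0.57, while Mdm2, Slc35e3 and Cpm have no filled point.

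Whether the difference itself changed with time was tested against day 0. None of the 6 genes was called in any of the 4 contrasts in limma, on the deposited values or on recovered reads, and over all genes tested 0.0182% were called at day 2 and 0% at days 4, 6 and 8. At day 8 the change from day 0 was 0.70 (SE 0.243) for Cct2, 0.64 (SE 0.186) for Frs2 and 0.58 (SE 0.213) for Cpsf6, each with an adjusted p of 0.710. At an unadjusted p under 0.05, 0, 0, 1 and 3 of the 6 passed at days 2, 4, 6 and 8, where 1.49%, 2.91%, 6.87% and 6.84% of all genes did. A day on which a gene was called is therefore not shown to differ from a day on which it was not.

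Markers of fat cells moved with the same arms and days. At day 8 the adipocyte markers summed to 2238 and 12857 RPM in scrambled cells and to 797 and 1507 RPM in knockdown cells, and at day 0 to 11.6 to 26.6 RPM in all 4 libraries. The fibroblast markers summed at day 8 to 20757 and 13982 RPM in scrambled cells and to 24665 and 25839 RPM in knockdown cells. The part of the marker difference in the results for Cct2, Cpsf6, Frs2 and Slc35e3 was not tested. Among the scrambled libraries of day 8, Cpsf6 and Frs2 were lower in library 2, the one with more adipocyte marker RNA, whereas Slc35e3 was higher there and Cct2 differed little. Library 2 also had more of this RNA at days 4 and 6, with Cpsf6 and Frs2 again lower in it. On these days Cct2 was higher in library 2, at 608 against 476 RPM and 425 against 387 RPM. Slc35e3 was higher in it at day 4 (1710 against 1589 RPM) and nearly equal at day 6 (1620 against 1639 RPM).

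The change over time is given as the log2 difference from day 0 in each arm, from limma voom on recovered reads, with its SE and no test. Cct2 was higher at day 2 than at day 0 by 0.92 in scrambled cells (SE 0.176), a fold of 1.90, and by 0.95 in knockdown cells (SE 0.178), a fold of 1.93. At days 4, 6 and 8 it was at 0.18, -0.26 and -0.61 in scrambled cells and at 0.37, 0.17 and 0.09 in knockdown cells. The scrambled values were -0.05, -0.41 and -0.67 without the 3 late scrambled libraries numbered 2.

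Frs2 was lower at days 4, 6 and 8 than at day 0 in scrambled cells, at -0.42 (SE 0.134), -0.52 (SE 0.133) and -0.70 (SE 0.133). These were -0.33, -0.47 and -0.59 without the 3 late libraries. In knockdown cells Frs2 stood between -0.07 and -0.04 from day 2 to day 8.

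Cpm was highest at day 4, by 3.28 over day 0 in scrambled cells (SE 0.817) and by 3.43 in knockdown cells (SE 0.877). The scrambled value was 2.04 without the 3 late libraries. At day 8 it was at 0.20 in scrambled and 0.71 in knockdown cells.

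Mdm2 in knockdown cells was at -0.28, -0.51, -0.66 and -0.57 at days 2, 4, 6 and 8 relative to day 0. Without knockdown library 1 of day 0, which had the highest Mdm2 level of all, these were -0.06, -0.29, -0.43 and -0.34. In scrambled cells Mdm2 was at -0.08, -0.11, -0.19 and -0.17, and at 0.20, 0.16, 0.08 and 0.11 without library 1 of day 0, so the sign of its change there rested on that library. Slc35e3 ranged from -0.26 to 0.00 over both arms and days, and Cpsf6 from -0.29 to 0.34.

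Along the chromosome, the genes that were higher in knockdown cells lay on both sides of Mdm2, which was not. The neighbourhood list, which runs from Cnot2 to Cand1, was drawn up with earlier results of these data known. Its counts, here and at day 8, therefore support nothing beyond its own genes. Of its 18 tested genes, 8 were called higher and 2 lower on average, with a median difference of 0.13, beside 12.3% and 13.2% of all genes tested. The counts were 6 and 1 of 18 without the 3 late scrambled libraries numbered 2, beside 10.2% and 10.5%; Frs2, Mdm1 (0.26, adjusted p = 0.0628) and Slc35e3 were then not called. Nup107 (1.38, limma adjusted p = 1.03e-06) and Yeats4 (1.04, adjusted p = 2.67e-06) had the largest differences of the 18. For both, the knockdown libraries were above the scrambled ones on all 5 days, as for 3.85% of all genes tested. Both were still called without the 3 late libraries, at 1.26 (adjusted p = 4.88e-06) and 1.01 (adjusted p = 2.58e-05). Rap1b (0.39, adjusted p = 0.00282), Mdm1 (0.35, adjusted p = 0.0127) and Rab3ip (0.33, adjusted p = 0.0182), a guanine exchange factor for Rab8, were also higher. Dyrk2, a protein kinase, was lower along with Slc35e3 (-0.19, adjusted p = 0.0227). Cnot2, Best3, Lrrc10, Lyz2, Lyz1 and Cand1 were not called, at -0.01, -0.02, -0.19, 0.24, 0.00 and 0.00. Gm239 lies within the same span but was not on the list; it was tested, at 0.01 (adjusted p = 0.927), and is named after its values were seen.

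At day 8, 8 of the 18 genes of the list were called higher and 0 lower, beside 3.39% of all genes tested called higher and 5.75% called. In gene order they were Rab3ip (0.76), Cct2 (0.85), Frs2 (0.57), Yeats4 (1.46), Cpsf6 (0.72), Nup107 (1.87), Rap1b (0.75) and Mdm1 (0.68). All 8 lay in the stretch from Rab3ip to Mdm1, which holds 15 tested genes of the list and was picked out after its values were seen, so it has no test. Mdm2, Slc35e3 and Cpm lie inside that stretch and were not called at day 8. Nor were Best3 (-0.12), Lrrc10 (-0.06), Lyz2 (0.50, limma adjusted p = 0.215) and Lyz1 (0.07), which also lie inside it. The count was 5 of 18 without the 3 late scrambled libraries numbered 2, beside 1.62% of all genes called higher, with Cpsf6, Frs2 and Mdm1 (0.64, adjusted p = 0.0847) not called. In a fit of the day 8 table alone it was 0 of 18, and 0 over all genes tested. Among the protein-coding genes within 40 of Mdm2 on each side, 16 tested ones lay beyond Cnot2, of which 4 were called higher and 1 lower on average and 0 at day 8, and 18 lay beyond Cand1, of which 2 were called higher and 1 lower on average and 0 at day 8.

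**Figure D4:**
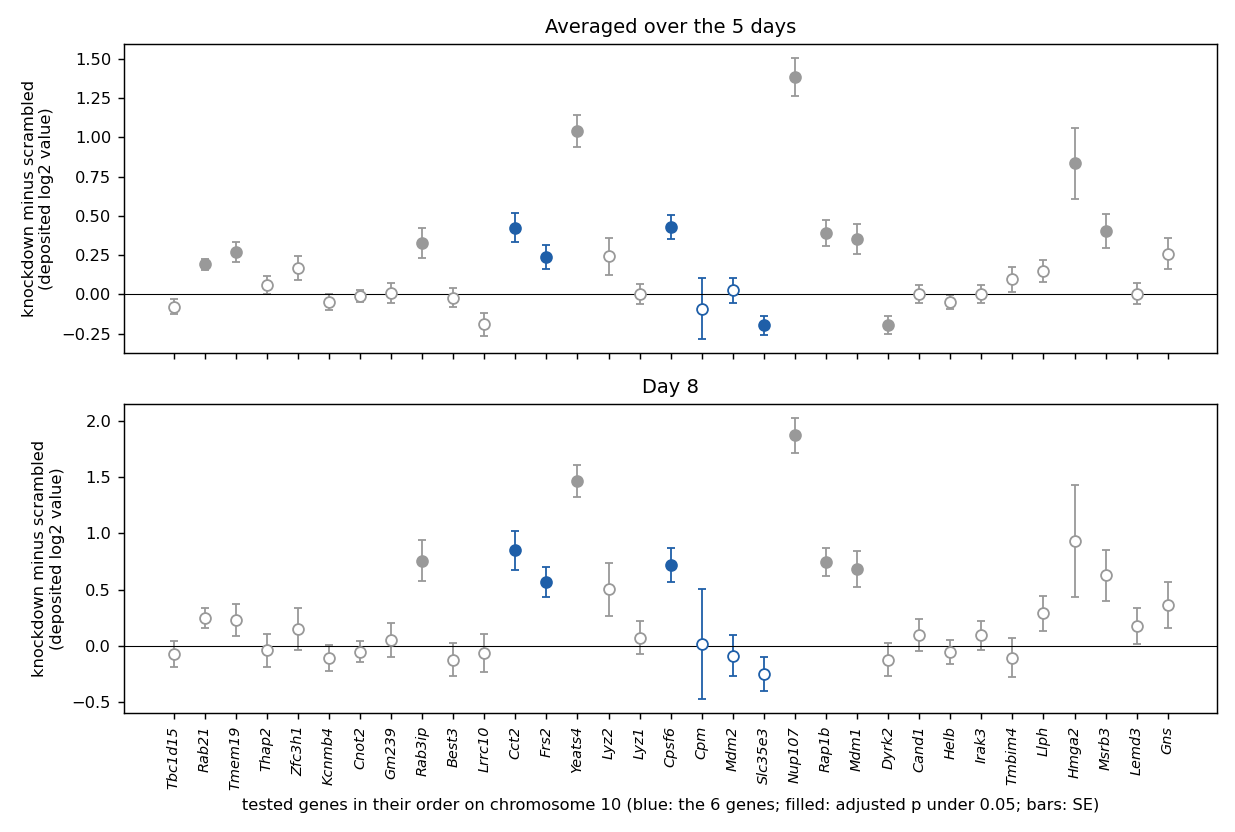
Difference between knockdown and scrambled libraries in the deposited log2 value for tested genes in their order along chromosome 10, averaged over days (top) and at day 8 (bottom), with the 6 genes in blue, bars for the SE and filled points where the limma adjusted p is under 0.05. At day 8 the filled points lie between Rab3ip and Mdm1, with open points among them, and Nup107 is highest at 1.87. Cpm, Mdm2 and Slc35e3 are open points near 0 or below it, and Best3, Lrrc10, Lyz2 and Lyz1 are open as well.

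The p53 pathway (Tigar not analysed here) was followed because Mdm2 both restrains p53 and answers to it. Of 26 tested genes of the list, 5 were higher and 2 lower in knockdown cells on average, with a median of 0.05. That is 7 of 26, beside 25.4% of all genes called (12.3% higher and 13.2% lower), a share near the background; without the 3 late scrambled libraries numbered 2 it was 3 higher and 2 lower, beside 10.2% and 10.5%. Those with the smallest p were Xpc, a DNA repair factor (-0.37, limma adjusted p = 5.01e-05), Eda2r, a receptor of the tumour necrosis factor family (0.92, adjusted p = 0.000229), Plk2, a kinase induced by stress (0.71, adjusted p = 0.00135), and Rchy1, another ubiquitin ligase for p53 (-0.21, adjusted p = 0.00270). Without the 3 late libraries these differences were -0.34, 0.66, 0.53 and -0.19. Trp53 was higher by 0.26 (adjusted p = 0.0464), a call that ended without the 3 late libraries (0.16, adjusted p = 0.182), while Cdkn1a, the classic p53 target, was at 0.05 (adjusted p = 0.769) and Mdm4 at -0.15 (adjusted p = 0.318). Over time, the median of this list was below its day 0 level in both arms, though most of its genes were not called on any day. At day 2, 3 were called higher and 7 lower in scrambled cells, beside 2174 and 1975 of all genes tested. In knockdown cells these were 3 and 6, beside 1186 and 1274. At day 4 they were 1 and 5 in scrambled cells, beside 1163 and 1027, and 0 and 1 in knockdown cells, beside 355 and 150. In knockdown cells, 5 of the 26 were called lower and 0 higher at day 6, and likewise at day 8. The medians there were -0.755 and -0.484, beside 21 and 20 of all 16497 genes called lower. Leaving out a single library could remove every call over all genes in these knockdown contrasts, so these calls are fragile. In scrambled cells, 10 of the 26 were called lower at day 6 and 9 at day 8, and 0 higher on either day. The medians were -0.57 on both days, beside 7.7% and 4.55% of all genes called lower. With the 3 late libraries left out, 8 and 6 of the 26 had fallen, beside 4.18% and 1.67% of all genes.

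In scrambled cells, 6 of the 7 other CCT subunits were called higher at day 2 than at day 0, beside 13.2% of all genes. The exception was Cct4 (0.29, limma voom adjusted p = 0.229). In knockdown cells 2 of the 7 were called higher, Cct3 and Cct6a, beside 7.19% of all genes. The changes of all 7 were above 0 in both arms, from 0.29 (Cct4) to 1.24 (Cct3) in scrambled cells and from 0.16 (Cct4) to 0.75 (Cct3) in knockdown cells. The median over all 8 subunits, Cct2 included, was 0.73 in scrambled and 0.43 in knockdown cells, and the difference between the arms in this change was not tested for the list. Between the arms, 2 of 8 subunits were higher on average in knockdown cells and 0 lower, beside 12.3% and 13.2% of all genes. These were Cct2 and Cct4 (0.25, adjusted p = 0.0131), with and without the 3 late scrambled libraries numbered 2, and the median of the list was -0.02. Cct6a and Tcp1 were next by p, at -0.15 (adjusted p = 0.276) and -0.09 (adjusted p = 0.473). At day 8 only Cct2 was called, and the other 7 lay between -0.01 and 0.35.

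The ratio of Cct2 to its partners was higher in the knockdown libraries. This was not tested, and it is no separate result from the difference in Cct2, which is its numerator. Its reads were 2.92 and 2.93 times the mean of the 7 other subunits in the scrambled libraries of day 0, and 2.98 and 2.97 times in the knockdown libraries. At day 8 the ratio was 2.15 and 1.86 in scrambled cells against 3.30 and 3.18 in knockdown cells. The knockdown libraries were above the scrambled ones on each of the 5 days, though by little at day 0. The mean of the other 7 subunits was 152 and 169 RPM at day 8 in scrambled cells and 172 and 198 RPM in knockdown cells.

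**Figure D5:**
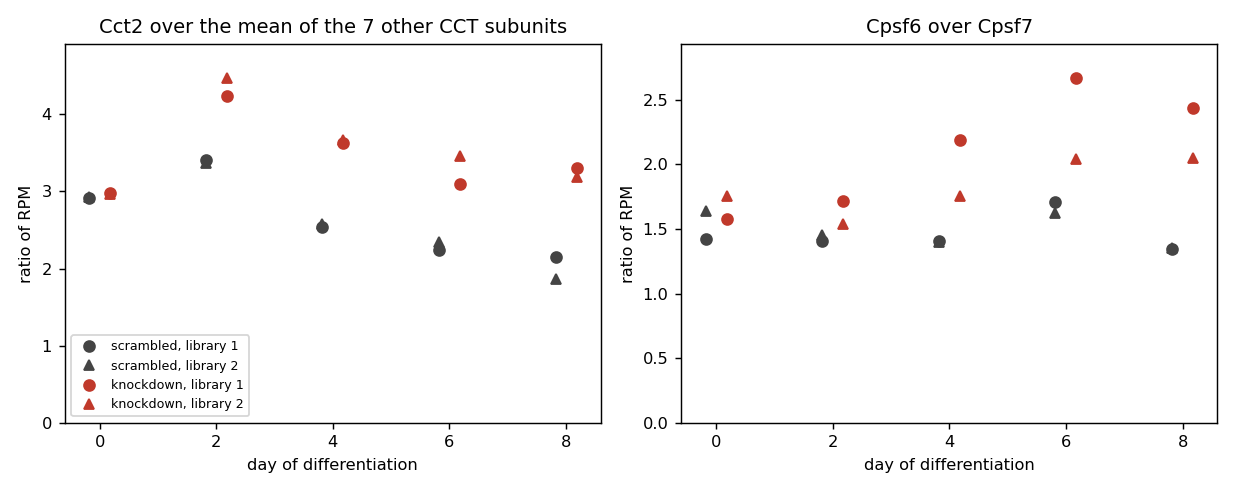
Ratio of reads of Cct2 to the mean of the 7 other CCT subunits (left) and of Cpsf6 to Cpsf7 (right) in each library by day of differentiation, with scrambled libraries in dark grey, knockdown libraries in red, circles for library 1 and triangles for library 2. The 4 libraries of day 0 lie between 2.92 and 2.98 on the left, and at day 8 the knockdown libraries are at 3.30 and 3.18 and the scrambled ones at 2.15 and 1.86.

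Of 16 tested cleavage and polyadenylation factors, 1 was called higher in knockdown cells, Cpsf6, and 1 lower, beside 12.3% and 13.2% of all genes. Without the 3 late scrambled libraries numbered 2, Cstf2 was called higher too (0.17, adjusted p = 0.0446; 0.08 and adjusted p = 0.401 with them). The catalytic endonuclease Cpsf3 was the lower one (-0.19, limma adjusted p = 0.00586), Cstf3 and Clp1 were at -0.12 (adjusted p = 0.0674) and -0.18 (adjusted p = 0.0863), and the list's median was -0.06. Cpsf6 pairs with Nudt21 in cleavage factor I, where Cpsf7 can take its place. Nudt21 was at 0.11 (adjusted p = 0.203) and Cpsf7 at 0.04 (adjusted p = 0.540), neither called. The ratio of Cpsf6 to Cpsf7 reads was 1.35 to 1.71 over the 10 scrambled libraries and 1.54 to 2.67 over the 10 knockdown libraries, and the arms overlapped at day 0 only; at day 8 it was 1.35 and 1.36 against 2.43 and 2.05.

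Around Frs2, 2 of the receptors it serves were lower in knockdown cells. Fgfr1 was not analysed here. Of 17 tested genes of FGF receptor signalling, 2 were higher and 7 lower in knockdown cells, with a median of -0.12, beside 12.3% and 13.2% of all genes. Leaving out the 3 late scrambled libraries numbered 2 made these counts 2 and 5, beside 10.2% and 10.5%, with Frs2 no longer among those higher. The receptors Fgfr2 (-1.02, limma adjusted p = 6.52e-07) and Fgfr3 (-1.39, adjusted p = 1.41e-06) were lower, as was the feedback inhibitor Spry4 (-1.25, adjusted p = 0.00169). Etv4, a transcription factor induced by this pathway, was higher (0.97, adjusted p = 0.00104) along with Frs2 itself. Etv4 was scarce, with a median of 1.69 RPM (0.0859 to 9.38). Also on the list, Dusp6 was lower (-0.59, adjusted p = 0.0139) and Etv5 was not called (-0.12, adjusted p = 0.532). Without the 3 late libraries Fgfr2, Fgfr3, Spry4 and Etv4 were at -1.08, -1.57, -0.85 and 0.75. Dusp6 was then at -0.40 and no longer among those lower.

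Of the M14 carboxypeptidases, the enzyme family of Cpm, 6 were tested, and 2 were higher and 1 lower on average, beside 12.3% and 13.2% of all genes; the counts were the same without the 3 late scrambled libraries numbered 2, though Cpe was then at 0.21 in place of 0.48 and Aebp1 at 0.43 in place of 0.70. Aebp1, a secreted family member without strong enzyme activity, was higher (0.70, limma adjusted p = 0.00643), as was Cpe, which processes prohormones (0.48, adjusted p = 0.0199), and Cpxm1 was lower (-0.47, adjusted p = 0.00797). Cpd was at -0.17 (adjusted p = 0.0695), and the median was 0.04. These lists are described by their counts beside those of all genes tested, and no test of a list was made.

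Across the 20 libraries, the genes whose levels ran most like those of Mdm2 were not its neighbours. By Pearson correlation of log2(RPM + 0.5) these were Esco1 (0.87), Rhbdl1 (0.86), Tmem184c (0.84), Clk2 (0.83) and R3hdm2 (0.83). Slc35e3, the adjacent gene, had a correlation of 0.52 with Mdm2 and ranked 1445th of the tested genes. Frs2 was at 0.29, Cpsf6 at 0.06, Cct2 at -0.01 and Cpm at -0.44. Among the other pairs, Cpsf6 and Frs2 ran together at 0.73. These are descriptions over libraries that share days, arms and sequencing depth.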

How the data were processed

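The authors deposited, for each of 5 days, a table of 33581 genes with log2 values per library; the submitters' processing notes name TopHat2 2.0.13, Bowtie2 2.2.3.0, DESeq2 1.10.1 and the build mm9; no source used here names the read counter. The tables also hold the authors' mean normalised level (a signal), log2 fold changes, a test score and p-values, which are quoted as theirs. The deposited log2 values behave as variance-stabilised values (floor 5.00 to 6.94), and inverting them gave whole reads for 100% of values up to 100 reads (tolerance 0.02 reads). Near the floor this scale shrinks differences, so a small value for a gene with few reads is not a small fold. Cpm at day 0 was at -0.19 on it, with mean levels of 1.58 RPM in knockdown and 2.10 RPM in scrambled cells. Hairpin differences of such genes are therefore not on the scale of the changes over time.

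Hairpin differences were fitted to the deposited values with limma 3.58.1 in R 4.3.3 (trend, robust), with day as a factor or as 10 group means; all 20 libraries share 1 spread per gene (14 and 10 residual degrees of freedom). Time courses used voom on recovered reads with TMM scaling (trims of 30% and 5%), fitted and tested over all genes; the rule that chose the 6 genes names the change by day, so their own changes are given without calls. A gene was tested if its normalised counts averaged 10 or more in any table (16497 genes), with Benjamini-Hochberg adjustment and calls under 0.05. RPKM used merged GENCODE vM21 exons (GRCm38), not the annotation of the tables, so long merged models lower it. The procedure was tested on simulated data. Deviations of same-numbered libraries correlated at 0.783, 0.702, 0.551, 0.537 and 0.468 on days 0 to 8, which pairs the libraries from the data, not from the labels.

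Members and gene lists were chosen with earlier results of these data known. Genes named are the 6 members, every tested gene of the neighbourhood list, up to 4 per other list with the smallest adjusted p of the average difference, Tcf7l2 and the 5 genes most correlated with Mdm2. Trp53, Cdkn1a, Mdm4, Nudt21, Cpsf7, Dusp6, Etv5 and single CCT or Slc35e relatives were added for their roles after their values were seen. Alternatives tried were other filters (none, 50), quantile normalization, median centring, recovered reads, other variance settings, total-read scaling, separate tables, the library number as a block, leaving out each library and, added after seeing the data, leaving out the 3 late scrambled libraries numbered 2.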

Additional observations from a re-analysis of the deposited data

How the results depend on the processing

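Among the 6 genes, Cct2 and Cpsf6 kept their average calls in all 29 alternatives. Without the 3 late scrambled libraries numbered 2, an alternative chosen after seeing the data, 2 of the 6 were called on average and 1 at day 8; the cause was not tested. With the replicate block, the number called was 1 at day 4 and 3 at day 6, on deposited values and on recovered reads (the latter added after seeing the data). It changed no other count among the 6. The fit of each table alone, which takes its spread from the libraries of that day only, called 0 at day 8.

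Leaving out each library gave 2 to 4 called on average, 0 to 1 at day 6 and 0 to 3 at day 8. Over all genes it gave, for the change from day 0 to days 2, 4, 6 and 8, 1686 to 4726, 437 to 3251, 165 to 4609 and 224 to 4231 called in scrambled cells and 1139 to 2927, 144 to 705, 0 to 220 and 0 to 200 in knockdown cells. Values that crossed 0 when 1 library was left out had these ranges for the knockdown difference: on average Cpm -0.22 to 0.068, Mdm2 -0.030 to 0.044, and at day 0 Frs2 -0.17 to 0.045, Slc35e3 -0.19 to 0.049, and at day 2 Cpm -0.15 to 0.0052, Frs2 -0.085 to 0.074, and at day 4 Cpm -1.32 to 0.69, and at day 6 Cpm -0.27 to 0.48, and at day 8 Cpm -0.038 to 0.068. The change of the difference from day 0 ranged at day 2 Cct2 -0.11 to 0.18, Cpm -0.0053 to 0.23, Cpsf6 -0.0023 to 0.18, Frs2 -0.051 to 0.17, Mdm2 -0.44 to 0.046, Slc35e3 -0.23 to 0.00032, and at day 4 Cpm -1.14 to 0.88, and at day 6 Cpm -0.079 to 0.66.

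Differences near 0 also changed sign between settings. Under quantile normalization Slc35e3 was 0.0099 at day 0, Mdm2 was -0.11 at day 2, 0.036 at day 6 and 0.035 at day 8, and Frs2 was 0.016 at day 2, where median centring gave 0.00064. Without the 3 late scrambled libraries Cpm was 0.12 on average, 0.69 at day 4 and -0.018 at day 8, and 0.88 for the change of the difference from day 0 to day 4, which was 0.14 on recovered reads.

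Over all genes tested, calls at days 0, 2, 4, 6 and 8 were 37, 44, 266, 679 and 948. They were 132, 128, 512, 2967 and 2817 with the block, 162, 330, 713, 3147 and 2612 with the block on recovered reads, and 0, 264, 111, 52 and 0 in fits of single tables. Quantile normalization gave 56 and 117 at days 0 and 2, recovered reads 107, 418 and 513 at days 2, 6 and 8, and leaving out the 3 late scrambled libraries 263, 194 and 495 at days 0, 2 and 8. On average 4195 were called, and 6407 with the block on recovered reads. The 3 calls for the change at day 2 went to 0 with the filter at 50, with the block, on recovered reads with or without it, and without the 3 libraries; at days 6 and 8, where 0 were called, those 3 libraries left out gave 11 and 4, and the block 1 at day 6. Over time the block raised the counts from 4149, 2190, 2880 and 1682 to 6631, 5638, 6129 and 4969 in scrambled cells, and from 2460, 505, 100 and 94 to 4813, 1548, 980 and 832 in knockdown cells. Without the 3 late libraries they were 1891 and 911 at days 6 and 8 in scrambled cells and 4222, 1514, 904 and 656 in knockdown cells. With 2 libraries per group, the spread between libraries limits precision, and for Cpm low read counts do too.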
